A study of Mus musculus with 18 samples.

Results

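The genes examined were Postn, Tnc, Vcan, Fn1, Mmp2, Mmp12, Mmp14, Timp2 and Timp3, which encode proteins of the extracellular matrix, matrix-cutting metalloproteinases and their inhibitors. They are 9 of 20416 genes measured on one-colour arrays of mouse RNA. Members were chosen by name. All probe sets annotated to exactly 1 of these symbols or its synonym were taken, 170 in all and 9 to 48 per gene, and the value of a gene on an array was the median log2 signal of its probe sets. RNA came from the caudal corpus callosum, a white matter tract, of C57BL/6 mice. All mice ate food containing 0.2% cuprizone (CPZ), a copper-binding toxin to which oligodendrocytes are sensitive, so that myelin is lost. The 4 groups were Trem2 knockout mice (TREM2-/-, KO) at 6 weeks (n = 3), wild-type mice (WT) at 6 weeks (n = 4), KO mice at 12 weeks (n = 6) and WT mice at 12 weeks (n = 5). The sample descriptions give 6 and 12 weeks as age. The treatment protocol gives mice 6 to 12 weeks old that were fed for 4, 6 or 12 weeks. The labels therefore do not settle if 6 and 12 weeks are ages or durations of CPZ feeding. The sources used here do not give how the knockout allele was made, and arrays of normally fed mice were not analysed here.

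Demyelinated white matter acquires a provisional matrix laid down by glia, vessels and blood plasma. Fibronectin, tenascin-C and versican are parts of that matrix, and metalloproteinases cut it. Metalloproteinases are made as inactive proenzymes, and tissue inhibitors of metalloproteinases (TIMPs) hold the active enzymes in check. MMP14, which sits in the cell membrane, activates proMMP2 in a complex that needs TIMP2. Microglia are among the cells that make and clear matrix in lesions, and TREM2 is a lipid-sensing receptor of these cells.

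The labels of genotype were first checked with Trem2 itself. The KO arrays reached at most 6.05 at 6 weeks and 5.59 at 12 weeks, and the WT arrays began at 6.44 and 6.83, so the genotypes did not overlap at either stage, as in 5.08% of all genes at 6 weeks and 2.47% at 12 weeks. The Trem2 difference had an adjusted p under 0.05 at 12 weeks (−2.09, adjusted p = 0.00253 in limma) and not at 6 weeks (−1.49, adjusted p = 0.248 in limma). The KO means, 5.80 and 5.27, lay above the dim level described next. Array medians lay within 0.148 of each other. Xist and Y-linked genes gave the sex of each array, and each group held both sexes. The 12-week arrays are listed in 2 runs, and in each run the KO and WT arrays were of opposite sex. KO replicate 2 and WT replicate 4 at 6 weeks had the lowest array weights of the 18, 0.446 and 0.502, and several 6-week differences given below depend on them. WT replicate 4 had a mean of 9.15 over 8 choroid plexus markers, against 4.67 to 7.21 on the other arrays. Whether arrays stand for separate mice is not stated, so the p-values describe the spread among arrays, part of which may be technical. The number of arrays limits the precision. In RNA from whole tissue, fewer cells of a type and less RNA per cell cannot be told apart.

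No array background was used here. A dim level was therefore taken in each group from 1197 chemosensory receptor genes, as the log2 value that 95% of them did not exceed. It ran from 3.73 to 3.95. For a single array the same share of those genes on that array was used. Postn was near background in 3 groups. Its mean was under the dim level in KO at 6 weeks and in WT at 12 weeks, and only 0.07 above it in KO at 12 weeks. The other 8 genes had means above the dim level in every group, although Mmp12 was at or under it on 2 of 3 KO arrays of 6 weeks. For Tnc that held on 1 WT array of 6 weeks and 1 KO array of 12 weeks. All 9 genes were among the 16332 tested.

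Promoter sequence is shown for Postn, the gene with the largest difference between genotypes, and for Timp2 and Timp3, whose values moved together most closely among the 9 genes. Sequences are the 250 bases before the annotated start, from RefSeq (GRCm38.p6), read 5′ to 3′ on the strand of the gene. A table of promoters held 7 of the 9 genes, and Fn1 and Mmp2 were not among them. The motifs searched on both strands were the AP-1 site TGANTCA, the TATA box TATAAA, the GC box GGGCGG and the PU.1 core GAGGAAGT, and none of them contains another. Capitals mark a match on either strand. The 250 bases before the 2 annotated Postn starts lie at chr3:54359017-54359266 and chr3:54360857-54361106 (plus strand). Those of Timp2 lie at chr11:118355412-118355661 (minus strand) and those of Timp3 at chr10:86300162-86300411 (plus strand).
Postn start 1: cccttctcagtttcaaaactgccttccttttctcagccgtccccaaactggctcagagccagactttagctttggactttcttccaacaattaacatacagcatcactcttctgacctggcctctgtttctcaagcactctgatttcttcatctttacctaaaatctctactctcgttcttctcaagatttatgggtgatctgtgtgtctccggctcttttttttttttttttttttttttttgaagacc
Postn start 2: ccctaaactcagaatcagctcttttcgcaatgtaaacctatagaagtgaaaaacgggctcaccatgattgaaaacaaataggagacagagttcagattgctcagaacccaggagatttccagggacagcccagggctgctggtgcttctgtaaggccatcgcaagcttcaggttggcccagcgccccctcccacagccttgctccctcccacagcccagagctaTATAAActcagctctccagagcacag
Timp2: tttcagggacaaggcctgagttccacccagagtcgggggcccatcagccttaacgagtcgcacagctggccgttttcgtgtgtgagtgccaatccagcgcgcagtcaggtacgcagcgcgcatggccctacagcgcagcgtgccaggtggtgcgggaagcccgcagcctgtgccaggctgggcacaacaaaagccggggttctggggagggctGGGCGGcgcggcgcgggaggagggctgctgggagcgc
Timp3: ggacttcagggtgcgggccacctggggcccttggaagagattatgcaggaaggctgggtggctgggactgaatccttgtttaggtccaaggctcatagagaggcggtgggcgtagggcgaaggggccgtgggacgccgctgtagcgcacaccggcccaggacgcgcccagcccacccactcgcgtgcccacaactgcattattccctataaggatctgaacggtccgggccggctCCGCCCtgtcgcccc
The promoters of Timp2 and Timp3 were rich in G and C, at 68.0% and 65.6%, and each held 1 GC box, 37 and 15 bases before the start. Of all 32851 promoters of the same length 32.7% held a GC box. The promoters of Tnc, Vcan and Mmp14 held GC boxes too, so the box was not particular to Timp2 and Timp3. The Postn promoters held 40.4% and 52.0% G and C and no GC box. A TATA box lay 26 bases before the second Postn start, and 12.4% of all promoters held one. The promoters of Mmp12, the macrophage elastase, differed from these. One held the PU.1 core, found in 2.44% of all promoters, 88 bases before its start. The other held an AP-1 site, found in 6.75%, 44 bases before its start.

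The first comparison asks how the genes differ between KO and WT tissue at 6 weeks. None of the 9 genes passed the test, an adjusted p under 0.05 in limma over all genes tested, where 0.0429% of all genes passed. By unadjusted p 1 of 9, Postn, lay under 0.05, against 5.44% of all genes. Postn was also the 1 gene of 9 whose groups did not overlap, against 5.08% of all genes. KO means were higher for Tnc and Timp2 and lower for the other 7 genes. The median difference was −0.21 on the log2 scale, against −0.00 for all genes.

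Postn encodes periostin, a secreted matricellular protein that binds integrins and is known from wound repair and fibrosis. At 6 weeks it had log2 values of 3.19, 3.27 and 4.04 in KO and 4.72, 4.93, 6.98 and 6.11 in WT. Every KO array lay below every WT array, and WT replicates 3 and 4 lay far above the other WT arrays. Over all genes 2.36% had their KO arrays below all WT arrays at this stage. Postn averaged 3.50 ± 0.47 in KO (SD, n = 3) and 5.69 ± 1.06 in WT (SD, n = 4). The log2 difference was −2.18 ± 0.47 (SE), with a 95% interval from −3.16 to −1.21 and an adjusted p of 0.153 in limma. It ranked 16 of 16332 genes by p. The KO mean was near background, so the size of this difference is uncertain. Postn also overlaps another annotated gene, Gm31095. All 20 probe sets of Postn had a lower mean in KO, and in 10 of them the groups did not overlap. Probe sets of 1 gene share the same RNA and are not replicates, and the share over all probe sets is not given here. The brightest probe set averaged 4.98 in KO and 7.71 in WT, so the difference was also present where WT signal was well above the dim level. The difference ran from −2.73 to −1.75 over the alternatives, all of them negative, and its adjusted p from 0.0631 to 1.00. It was −1.75 without WT replicate 3, the highest Postn array, and −2.04 without WT replicate 4, the choroid plexus array. With the mean of the probe sets in place of their median it was −1.996 (adjusted p = 0.0631 in limma). In males the difference was −1.59 with 2 arrays a side, and in females −2.50 with 1 KO array against 2 WT arrays.

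**Figure D1:**
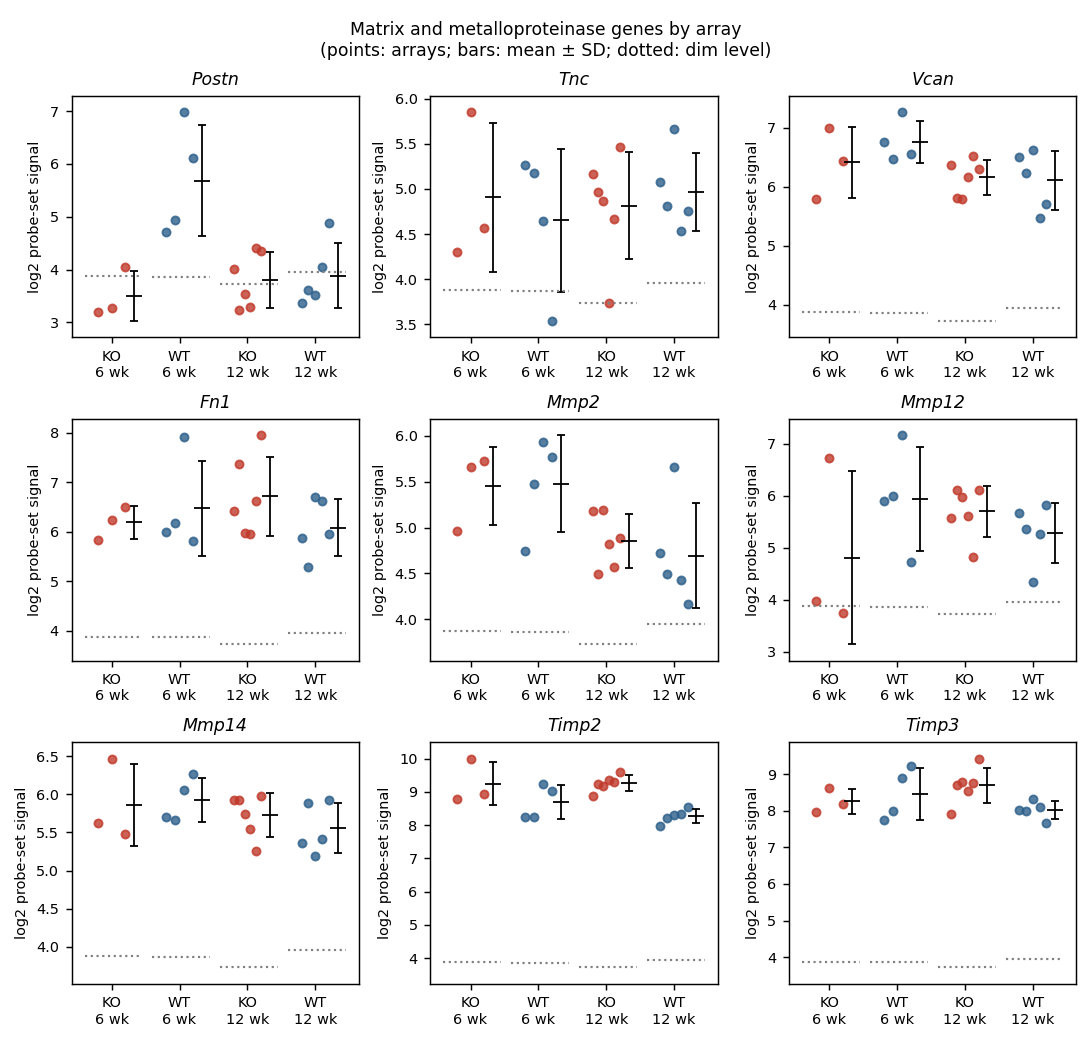
Log2 probe-set signal of each of the 9 genes (vertical axis, own scale per gene) in KO and WT arrays of 6 and 12 weeks, with 1 point per array, bars for mean ± SD and dotted lines for the dim level of the group. Postn stands above the dim level on all 4 WT arrays of 6 weeks and near it in the other groups, and Timp2 shows all 6 KO arrays of 12 weeks above all 5 WT arrays.

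At 12 weeks the Postn difference was not seen. The KO arrays ran from 3.23 to 4.40 with a median of 3.78, and the WT values were 3.36, 3.61, 3.52, 4.04 and 4.88. The groups overlapped throughout. Postn averaged 3.80 ± 0.52 in KO (SD, n = 6) and 3.88 ± 0.61 in WT (SD, n = 5), a log2 difference of −0.08 ± 0.37 (SE), with an interval from −0.85 to 0.69 (adjusted p = 0.950 in limma). Both gene means were close to the dim level, so a difference would be hard to see in them. The brightest probe set averaged 5.85 in KO and 6.21 in WT at 12 weeks, a difference of −0.36. A dim level for single probe sets was taken from those of the same receptor genes. In at least 1 group 9 of the 20 Postn probe sets lay above it, and their median difference was −0.22. No probe set had groups that did not overlap. The change of the genotype difference between stages was 2.10 ± 0.60 (SE) for Postn, which did not pass as an interaction (adjusted p = 0.746 in limma). Across stages in WT the 12-week mean of Postn was lower by 1.80 ± 0.41 (log2, SE; the difference as 12 minus 6 weeks was −1.80, adjusted p = 0.198 in limma). All 20 probe sets had a lower mean at 12 weeks, though the highest 12-week WT array (4.88) lay above the lowest 6-week WT array (4.72). In KO the 12-week mean differed from the 6-week mean by 0.30 ± 0.43 (SE), with both means near background.

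Cell type markers differed between the same groups as Postn. The 7 measured oligodendrocyte and myelin genes all had lower means in KO at 6 weeks, with a median difference of −0.70, and 0 of 7 passed. Their mean log2 level ran from 8.09 to 9.84 in KO and from 8.66 to 10.76 in WT at 6 weeks. In WT the same 7 genes were all lower at 12 weeks, with a median difference of −1.81. The 6 oligodendrocyte precursor markers averaged from 6.43 to 6.86 in KO and from 6.43 to 7.32 in WT at 6 weeks, and the 2 WT arrays with the highest Postn were also the highest for these markers. None of these oligodendrocyte and precursor markers was near background in any group. Lesion phagocyte markers had lower means in KO at 6 weeks for 6 of 9, with a median of −0.85, and lower means at 12 weeks in WT for 8 of 9, with a median of −0.39. Choroid plexus markers had lower means in KO at 6 weeks for 7 of 8, with a median of −0.51, and at 12 weeks in WT for 8 of 8, with a median of −1.41. None of these markers passed in those comparisons. The choroid plexus mean at 6 weeks ran from 5.45 to 6.38 in KO and from 5.27 to 9.15 in WT. Markers of fibroblasts and leptomeninges, cells known to make periostin, went the other way at 6 weeks. All 10 had higher means in KO, 0 of them passed, and their mean ran from 5.12 to 5.61 in KO and from 4.36 to 5.46 in WT, where Lum was near background. The part of these cell types in the Postn difference was not tested.

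Mmp12 encodes the macrophage metalloelastase, which phagocytes secrete. At 6 weeks it had values of 3.97, 6.72 and 3.74 in KO and 5.90, 5.99, 7.16 and 4.72 in WT. KO replicates 1 and 3 lay below every WT array, at or under the dim level of their arrays, while KO replicate 2 lay above 3 of the 4 WT arrays, so the groups overlapped. The means were 4.81 ± 1.66 in KO (SD, n = 3) and 5.94 ± 1.00 in WT (SD, n = 4). The log2 difference was −1.13 ± 0.59 (SE), with an interval from −2.36 to 0.10, and did not pass (adjusted p = 0.941 in limma). It was −2.08 without KO replicate 2 (adjusted p = 0.580 in limma). Without both low-weight arrays, a setting chosen after seeing the data, it was −2.49 and passed (adjusted p = 0.0381 in limma). It was −0.57 with the mean of the probe sets, −0.71 and −0.59 without KO replicates 1 and 3, and −0.72 without WT replicate 3. Of 14 probe sets 9 had a lower mean in KO. Within males it was −0.59 and within females −2.20, again with 1 female KO array.

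At 12 weeks the Mmp12 values in KO ran from 4.82 to 6.12 with a median of 5.79, and the WT values were 5.67, 5.37, 4.34, 5.26 and 5.82. The groups overlapped, with means of 5.70 ± 0.49 in KO (SD, n = 6) and 5.29 ± 0.58 in WT (SD, n = 5). The difference of 0.41 ± 0.47 (log2, SE) lay within the spread (interval −0.57 to 1.39, adjusted p = 0.777 in limma). The genotype by stage interaction was 1.54 ± 0.75 (SE), with an interval from −0.03 to 3.11, and did not pass (adjusted p = 0.917 in limma). At 6 weeks Mmp12 was high on the arrays where lesion phagocyte markers (Gpnmb, Spp1, Itgax, Lpl and others) were high. The mean of those 9 markers was 6.66, 8.02 and 6.99 on the KO arrays and 8.09, 7.88, 9.19 and 6.96 on the WT arrays. The KO array with high Mmp12 was the one with high phagocyte markers, and the WT array with the lowest Mmp12 had the lowest markers. Itgax was near background in KO at both stages. Of the 9 markers 6 had lower means in KO at 6 weeks, with a median of −0.85, and 0 passed. At 12 weeks 6 of the 9 had lower means in KO, with a median of −0.11, while the Mmp12 mean was higher in KO. Itgax passed there as lower (adjusted p under the threshold in limma). KO replicate 1 of 12 weeks had a marker mean of 6.84 and Mmp12 at 5.57, and WT replicate 4 had 7.92 and 5.26. The 12-week WT array with the highest markers, 8.33, also had the highest WT Mmp12, 5.82. The part of lesion phagocytes in the Mmp12 values was not tested.

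**Figure D2:**
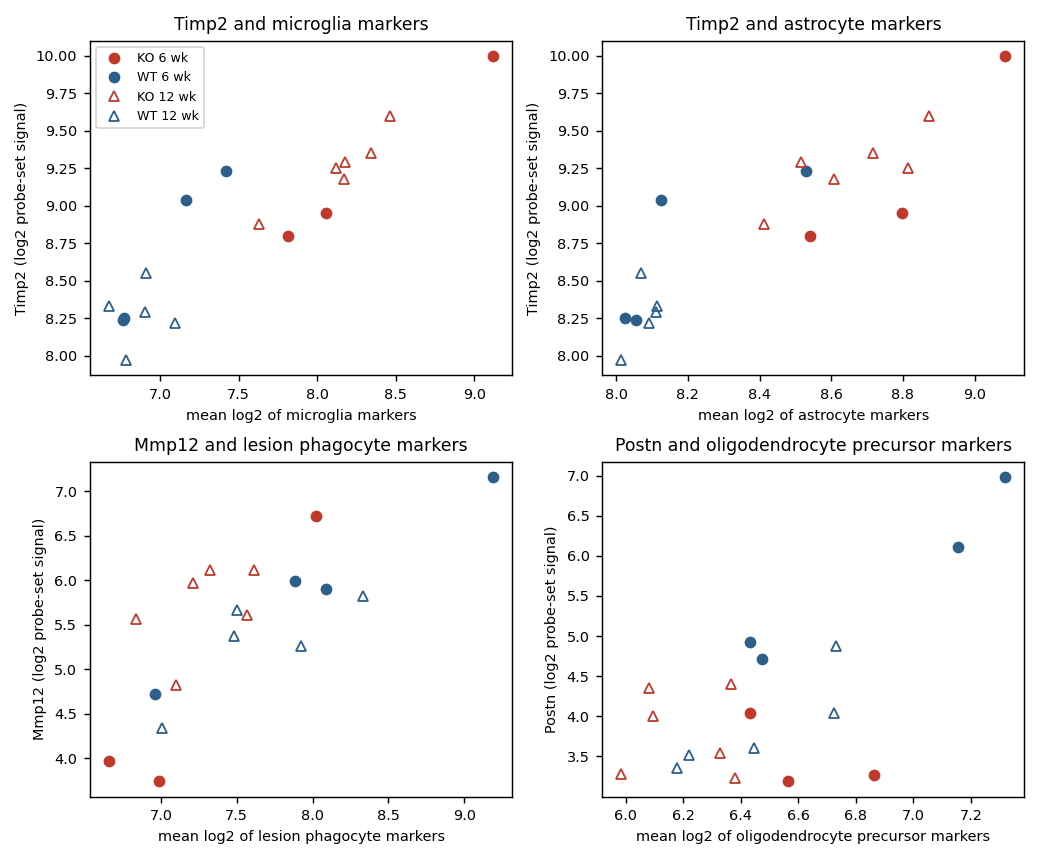
Log2 signal of a gene (vertical axis) against the mean log2 level of a list of cell type markers (horizontal axis), 1 point per array, red for KO, blue for WT, filled circles for 6 weeks and open triangles for 12 weeks. Timp2 tends to be high on arrays with high microglia and astrocyte markers, though not on every array of 6 weeks. The 12-week KO arrays lie at microglia means from 7.63 to 8.46 and the 12-week WT arrays from 6.68 to 7.09. Mmp12 is highest on the WT array with the highest phagocyte markers (9.19).

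The same comparison at 12 weeks had more arrays. None of the 9 genes passed in limma, where 0.441% of all genes did. By unadjusted p, Timp2 and Timp3 lay under 0.05, 2 of 9 against 11.1% of all genes. Timp2 was the 1 gene of 9 whose groups did not overlap, against 2.47% of all genes. KO means were higher for 7 genes and lower for Postn and Tnc. The median difference was 0.18, against 0.02 for all genes.

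Timp2 encodes a secreted inhibitor that also takes part in the activation of proMMP2. At 12 weeks its log2 values in KO ran from 8.88 to 9.60 with a median of 9.27, and the WT values were 7.97, 8.22, 8.29, 8.33 and 8.55. All 6 KO arrays lay above all 5 WT arrays, which held in 1.7% of all genes. Timp2 averaged 9.26 ± 0.24 in KO (SD, n = 6) and 8.27 ± 0.21 in WT (SD, n = 5). The log2 difference was 0.99 ± 0.23 (SE), 1.99-fold, with an interval from 0.52 to 1.47, and missed the threshold with an adjusted p of 0.0575 in limma. Of 9 probe sets 8 had a higher mean in KO, and in 7 the groups did not overlap, though these read the same RNA and are not replicates. The difference passed in 9 of 31 alternatives, and its adjusted p ran from 0.00606 in a fit of the 12-week arrays alone to 0.210. Its size ran from 0.72 to 1.07 over those alternatives. It was 1.01 in the first listing run and 1.03 in the second, 1.32 in females and 0.72 in males. Within a run the KO and WT arrays were of opposite sex, and within a sex they came from different runs. Effects of run and sex therefore cannot be told apart in these splits.

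At 6 weeks Timp2 had values of 8.80, 9.996 and 8.95 in KO and 8.25, 8.24, 9.23 and 9.04 in WT. The groups overlapped, with KO replicate 2 highest and WT replicates 3 and 4 above the other 2 KO arrays. The means were 9.25 ± 0.65 in KO (SD, n = 3) and 8.69 ± 0.52 in WT (SD, n = 4), a difference of 0.56 ± 0.29 (log2, SE; adjusted p = 0.941 in limma). It was 0.18 without KO replicate 2, 0.30 without both low-weight arrays, −0.19 in females with 1 KO array and 1.15 in males. The interaction of genotype and stage was 0.43 ± 0.37 (SE; adjusted p = 0.963 in limma), so a difference between stages was not shown. Between 12 and 6 weeks Timp2 differed by 0.01 ± 0.27 in KO and by −0.42 ± 0.25 in WT (log2, SE), and neither passed.

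Markers of 2 glial types had higher means in KO at 12 weeks, as Timp2 had. All 7 measured microglia markers had higher means in KO at 12 weeks, with a median difference of 1.02, and P2ry12, Tmem119 and Itgam rose (adjusted p under the threshold in limma). Their mean level ran from 7.63 to 8.46 in KO and from 6.68 to 7.09 in WT. The 7 astrocyte markers also all had higher means in KO at 12 weeks, with a median of 0.54 and 0 passing, and their level ran from 8.41 to 8.87 in KO and from 8.01 to 8.11 in WT. The array with the highest Timp2 of all 18, KO replicate 2 of 6 weeks, also had the highest microglia (9.12) and astrocyte (9.09) levels. The other arrays of 6 weeks followed less closely. Of 7 microglia markers 6 had higher means in KO at 6 weeks, with a median of 1.36 and P2ry12 passing in limma. For astrocyte markers it was 6 of 7, with a median of 0.73 and 0 passing. KO replicates 1 and 3 had microglia levels of 7.82 and 8.06 and Timp2 at 8.80 and 8.95. WT replicates 3 and 4 had lower microglia levels, 7.42 and 7.16, but higher Timp2, 9.23 and 9.04. Microglia and astrocytes are both known to express Timp2. Whether the Timp2 difference goes beyond that of these markers was not tested.

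Timp3 encodes the inhibitor that stays bound to the matrix and also inhibits shedding enzymes of the ADAM family. At 12 weeks its KO values ran from 7.91 to 9.42 with a median of 8.73, and the WT values were 8.01, 8.0, 8.32, 8.10 and 7.65. KO replicate 1 lay among the WT arrays and the other 5 KO arrays lay above all of them. The means were 8.68 ± 0.49 in KO (SD, n = 6) and 8.02 ± 0.24 in WT (SD, n = 5). The difference of 0.67 ± 0.27 (log2, SE) had an interval from 0.11 to 1.22 and did not pass (adjusted p = 0.352 in limma). All 9 probe sets had a higher mean in KO. It was 0.46 and 0.88 in the 2 listing runs, and 0.90 in females and 0.44 in males, splits in which run and sex cannot be told apart. At 6 weeks Timp3 had values of 7.95, 8.63 and 8.18 in KO and 7.75, 7.99, 8.88 and 9.22 in WT, a spread in WT that covered all KO arrays. The difference there was −0.21 ± 0.34 (SE; adjusted p = 0.999 in limma). It turned to 0.05 without WT replicate 4, the array with high choroid plexus markers, and was −0.07 without WT replicate 3 and −0.06 without KO replicate 1. Leaving out WT replicate 1 gave −0.44, WT replicate 2 −0.36 and KO replicate 2 −0.39. The interaction was 0.88 ± 0.43 (SE; adjusted p = 0.917 in limma). By RefSeq gene positions, 6 of the 9 genes overlap another gene. Timp3 lies within the span of Syn3, Timp2 overlaps Cep295nl, Postn overlaps Gm31095, Tnc 8030451A03Rik, Mmp2 Gm45472, and Vcan Gm16318 and Gm4117. The sources used here do not say which strand a probe set reads, so signal from an overlapping gene cannot be told apart from these values.

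The choroid plexus, an epithelium at the ventricles next to the sampled tissue, expresses Timp3. The highest Timp3 values of 6-week WT and 12-week KO arrays fell on arrays with high choroid plexus markers. WT replicate 4 of 6 weeks had Timp3 at 9.22 and the marker mean at 9.15, and KO replicate 6 of 12 weeks had Timp3 at 9.42 and the marker mean at 7.21. In the other groups this did not hold. The KO arrays of 6 weeks with marker means of 6.38, 5.88 and 5.45 had Timp3 at 7.95, 8.18 and 8.63. In WT at 12 weeks the array with the highest marker mean, 6.20, had Timp3 at 8.10, under the 8.32 of replicate 3 (marker mean 5.67). Among KO arrays of 12 weeks, replicate 5 (marker mean 7.10) had Timp3 at 8.76 and replicate 3 (5.01) at 8.79. Over the 8 markers the mean ran from 5.00 to 7.21 in KO and from 4.67 to 6.20 in WT at 12 weeks, with Cldn2 near background in both groups. Of the 8 markers 7 had higher means in KO at 12 weeks, with a median of 0.63, and 0 passed. Without KO replicate 6 the Timp3 difference at 12 weeks was 0.52, and without WT replicate 4 its 6-week difference was 0.05. Means of the fibroblast and leptomeninges markers were also highest of their groups on these arrays, at 7.09 (KO) and 5.46 (WT). In WT at 12 weeks replicate 3 was highest for these markers (5.79) and for Timp3. In KO at 6 weeks replicate 3 (5.61) was highest for these markers only. Over the 18 arrays Timp3 had a Pearson r of 0.62 with either mean. It was 0.50 to 0.58 with endothelium, astrocytes, microglia and mural cells. The part of choroid plexus or of these other cells was not tested.

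**Figure D3:**
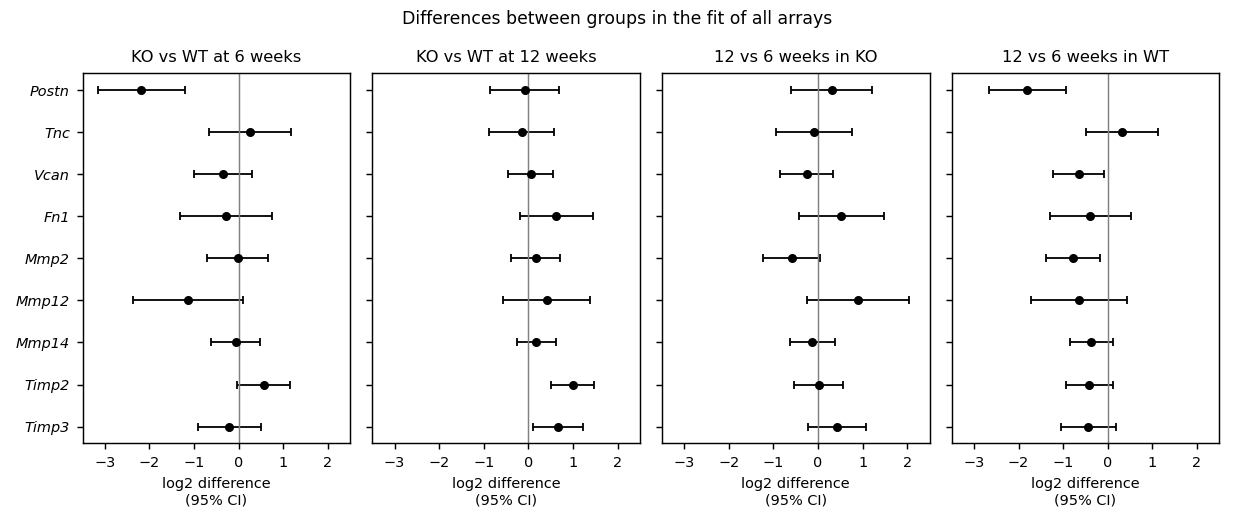
Log2 differences between groups for the 9 genes (rows) with 95% intervals from the fit of all 18 arrays, in 4 panels for KO against WT at 6 and at 12 weeks and for 12 against 6 weeks in KO and in WT. The interval of Postn lies wholly below 0 at 6 weeks between genotypes and, with those of Vcan and Mmp2, between stages in WT, and those of Timp2 and Timp3 lie above 0 at 12 weeks, but no difference passed over all genes.

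Fibronectin, encoded by Fn1, is a plasma and tissue glycoprotein that joins cells to matrix through integrins. At 6 weeks it had values of 5.84, 6.23 and 6.50 in KO and 5.99, 6.17, 7.91 and 5.82 in WT. All KO arrays lay inside the WT range, which WT replicate 3 alone extended upward. The difference was −0.28 ± 0.49 (log2, SE; adjusted p = 0.999 in limma), and it was 0.20 without that array. It was −0.50 without WT replicate 4, −0.44 without WT replicate 1 or KO replicate 3, −0.52 without both low-weight arrays, −0.11 without KO replicate 1 and −0.67 with the brightest probe set. At 12 weeks the KO values ran from 5.96 to 7.95 with a median of 6.52, and the WT values were 5.88, 5.28, 6.70, 6.62 and 5.95. The 12-week difference, two-sided in limma, was 0.63 ± 0.39 (log2, SE), with an interval from −0.19 to 1.45 and an adjusted p of 0.576. KO replicates 2 and 6 stood above every WT array and the other 4 did not. Without KO replicate 6 the difference was 0.38 (adjusted p = 0.796 in limma). Of its 48 probe sets 45 had a higher mean in KO at 12 weeks, and 1 of these had groups that did not overlap. At 6 weeks 35 of 48 had a lower mean in KO. Probe sets of 1 gene share the same RNA, so these counts describe how even the signal is along the transcript and are not replicates. At 12 weeks Fn1 differed by 1.01 and 0.42 in the 2 listing runs, and by 1.26 in females and 0.16 in males. Run and sex cannot be told apart in these splits either.

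Versican, encoded by Vcan, is a chondroitin sulphate proteoglycan that binds hyaluronan and is made by oligodendrocyte precursors among other cells. At 6 weeks it had values of 5.80, 7.002 and 6.44 in KO and 6.75, 6.47, 7.26 and 6.56 in WT. At 12 weeks the KO values ran from 5.79 to 6.52 with a median of 6.23, and the WT values were 6.50, 6.24, 6.62, 5.47 and 5.70. The genotypes overlapped at both stages. Their difference was −0.35 ± 0.31 at 6 weeks and 0.05 ± 0.24 at 12 weeks (log2, SE), and the 12-week interval ran from −0.46 to 0.56. Most single probe sets had the opposite sign to these medians. At 6 weeks 9 of 15 had a higher mean in KO, with a median difference of 0.24, and at 12 weeks 11 of 15 had a lower one, with a median of −0.25. With the mean of the probe sets the differences were 0.03 at 6 weeks and −0.22 at 12 weeks. The 6-week difference was also −0.64 without KO replicate 2, −0.71 without both low-weight arrays, −0.18 without WT replicate 3 and −0.04 without KO replicate 1. Between stages in WT the 12-week mean was lower, at −0.65 ± 0.27 (SE; adjusted p = 0.516 in limma), and all 15 probe sets had a lower mean at 12 weeks. In KO the stage difference was −0.26 ± 0.29 (SE), with 14 of 15 probe sets lower.

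Tenascin-C, encoded by Tnc, is a large glycoprotein that astrocytes make in development and after injury. At 6 weeks it had values of 4.30, 5.85 and 4.57 in KO and 5.26, 5.18, 4.64 and 3.54 in WT. At 12 weeks the KO values ran from 3.74 to 5.47 with a median of 4.92, and the WT values were 5.08, 4.81, 5.66, 4.53 and 4.75. The genotypes overlapped at both stages. The difference was 0.25 ± 0.44 at 6 weeks and −0.15 ± 0.35 at 12 weeks (log2, SE), and neither passed. The 6-week sign rested on single arrays and on the probe sets. It was −0.22 without KO replicate 2, −0.12 without WT replicate 4 and −0.60 without both, −0.19 with array weights, −0.03 with the replicate block and −0.82 with the brightest probe set. Leaving out KO replicate 1 or 3 or WT replicate 1 or 2 gave 0.42 to 0.55. The probe sets of Tnc disagreed. At 6 weeks 13 of 29 had a higher mean in KO and 16 a lower one, and 1 of them stood apart with a difference of 3.75. That probe set had a median of 5.86 in KO (range 5.40 to 7.52) and 2.06 in WT (range 1.35 to 4.57) at 6 weeks. At 12 weeks it had a median of 3.91 in KO and 5.60 in WT, so its order of genotypes was not the same. It was chosen for mention after its values were seen.

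**Figure D4:**
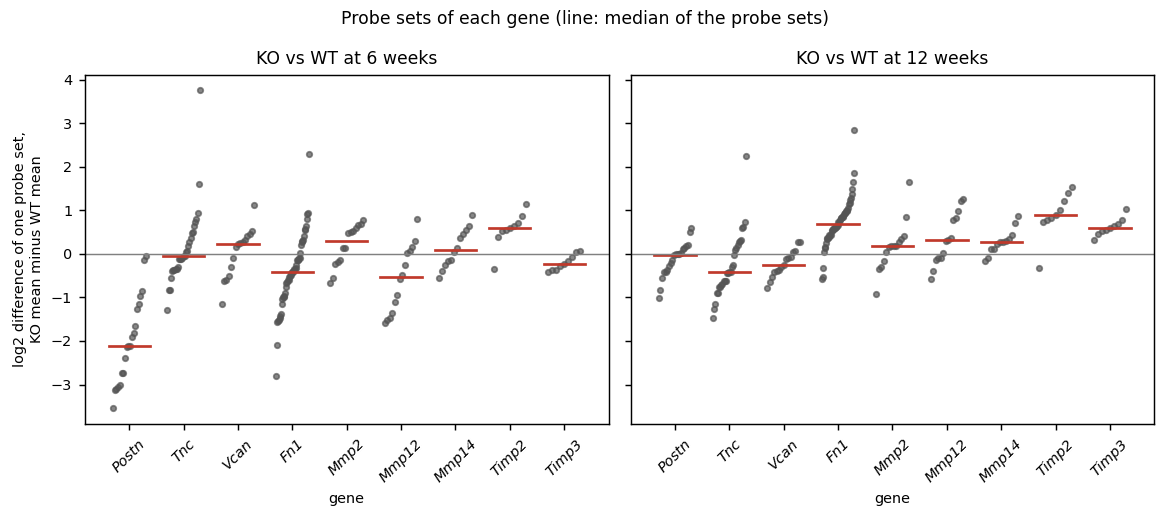
Difference of KO mean minus WT mean in log2 for every probe set of the 9 genes (points, spread sideways within a gene) at 6 weeks and at 12 weeks, with a red line at the median of the probe sets. All 20 Postn points lie below 0 at 6 weeks, 8 of 9 Timp2 points lie above 0 at 12 weeks, 45 of 48 Fn1 points lie above 0 at 12 weeks, and 1 Tnc point lies at 3.75 at 6 weeks.

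The enzymes MMP2, a gelatinase, and MMP14, its activator on the cell surface, differed little between genotypes. Mmp2 had values of 4.96, 5.66 and 5.73 in KO and 4.74, 5.47, 5.93 and 5.77 in WT at 6 weeks. At 12 weeks its KO values ran from 4.49 to 5.19 with a median of 4.86, and the WT values were 4.72, 4.49, 5.66, 4.43 and 4.17. The genotypes overlapped, and the differences were −0.03 ± 0.33 at 6 weeks and 0.16 ± 0.26 at 12 weeks (log2, SE). The intervals ran from −0.71 to 0.66 and from −0.38 to 0.71. With the brightest probe set the differences were 0.49 at 6 weeks and 0.84 at 12 weeks, and neither passed. The sign at 6 weeks turned in 6 alternatives, with a range from −0.27 to 0.49. Mmp2 was lower at 12 than at 6 weeks in both genotypes without passing, at −0.59 ± 0.30 in KO and −0.78 ± 0.29 in WT (SE; adjusted p = 0.671 and 0.469 in limma). In each genotype 13 of its 14 probe sets had a lower mean at 12 weeks.

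Mmp14 had values of 5.63, 6.47 and 5.48 in KO and 5.70, 5.67, 6.06 and 6.27 in WT at 6 weeks. At 12 weeks its KO values ran from 5.25 to 5.98 with a median of 5.84, and the WT values were 5.36, 5.89, 5.19, 5.42 and 5.92. The genotypes overlapped at both stages. The differences were −0.06 ± 0.26 at 6 weeks and 0.18 ± 0.21 at 12 weeks (log2, SE), with intervals from −0.61 to 0.49 and from −0.26 to 0.61. The sign at 6 weeks turned in 5 alternatives, with a range from −0.37 (without KO replicate 2) to 0.56 (with the brightest probe set). The interaction was 0.24 ± 0.34 (SE; adjusted p = 0.985 in limma).

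The comparison of stages asks what differs between 12 and 6 weeks within a genotype. None of the 9 genes passed in WT, where 0.0184% of all genes did, nor in KO, where 0.00612% did, nor in the interaction, where 0% of all genes passed and 5.21% had an unadjusted p under 0.05. By unadjusted p in limma, Postn, Vcan and Mmp2 lay under 0.05 in WT (3 of 9, against 8.47% of all genes), 0 genes did in KO (7.51%), and Postn did in the interaction. No gene of the 9 had stages that did not overlap, against 2.49% of all genes in WT and 3.9% in KO. In WT 8 of 9 genes had a lower mean at 12 weeks and Tnc a higher one. The median difference was −0.44, against 0.01 for all genes. In KO 5 of 9 had a higher mean at 12 weeks, and the median was 0.01, against 0.02 for all genes. Both genotype comparisons and both stage comparisons share groups, so these counts are not independent of each other. In the order of the 4 group means no gene had neighbours whose ranges were apart. For Timp2 the order was KO at 12 weeks, KO at 6 weeks, WT at 6 weeks and WT at 12 weeks, and for Postn it was WT at 6 weeks, WT at 12 weeks, KO at 12 weeks and KO at 6 weeks.

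Over the 18 arrays, 5 of the 36 pairs of the 9 genes had a Pearson r above 0.5, and 4 had one below 0, with a median of 0.28. The highest was that of Timp2 and Timp3 (0.72), followed by Vcan and Mmp2 (0.66). These values hold the group differences as well as the spread within groups, and all genes of an array share its RNA. The genes most like each member over the 18 arrays were C1qb, Scamp2 and Rasgrp3 for Timp2 (r = 0.94 each) and Sft2d2, Wnt5a and Cat for Timp3 (0.91, 0.90 and 0.88). For Postn they were Reep5, Tppp and Dock6 (0.86, 0.82 and 0.81), and for Mmp12 they were H2-DMb1, Lat2 and S100a6 (0.85, 0.84 and 0.80). Those nearest to Vcan were Lrpap1, Kmt5c and Spry4 (0.85, 0.82 and 0.79), and those nearest to Fn1 were Tut1, Adgrf5 and Omd (0.80, 0.78 and 0.78). For Tnc they were Stag1, Rad18 and N6amt1 (0.81, 0.79 and 0.78), for Mmp2 Ubr4, Leprotl1 and Zfp157 (0.83, 0.81 and 0.77), and for Mmp14 Slc20a2, Mapk8ip1 and Cd82 (0.82, 0.81 and 0.78).

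The wider matrix gene families were read from 7 lists of 80 other genes, of which 76 were tested. None passed in any of the 5 comparisons in limma. Unadjusted p under 0.05 was met by 10 of the 76 at 6 weeks and 19 at 12 weeks between genotypes, by 4 between stages in KO and 11 in WT, and by 7 in the interaction. These are 13.2% and 25.0% of the list between genotypes, where 5.44% and 11.1% of all genes met it. Between stages they are 5.26% in KO and 14.5% in WT, against 7.51% and 8.47% of all genes, and in the interaction 9.21%, against 5.21%. KO means were higher for 53 of 76 genes at 6 weeks, with a median difference of 0.14, and for 53 of 76 at 12 weeks, with a median of 0.17. Among all genes 49.6% and 52.4% were higher in KO. The lists were chosen with earlier results of these data known, so these shares describe the listed genes and do not test the matrix families.

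Among the matricellular proteins 11 of 15 had a higher mean in KO at 6 weeks and 12 of 15 at 12 weeks. Ccn1, a matricellular protein induced by growth factors and stretch, had KO values of 7.89, 7.94 and 10.70 and a WT range of 5.71 to 7.0 at 6 weeks, with no overlap. Its difference was 2.49 ± 0.57 (log2, SE; adjusted p = 0.215 in limma), and 1.56 without KO replicate 2, the highest array. Sparc, a collagen-binding protein made by glia and vessels, ran from 9.79 to 11.22 in KO and from 8.70 to 9.96 in WT at 12 weeks, a difference of 1.22 ± 0.32 (SE; adjusted p = 0.102 in limma). The ranges of Sparc overlapped slightly.

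Collagens were split at 12 weeks, with 6 of 12 higher in KO. The 2 with the smallest p were lower. Col5a1, a fibril-forming chain, was at −0.49 ± 0.14 (SE; adjusted p = 0.15) and Col18a1, a basement membrane chain, at −0.56 ± 0.17 (SE; adjusted p = 0.181 in limma). Col5a1 ran from 4.57 to 4.81 in KO and from 4.87 to 5.38 in WT, with no overlap. The ranges of Col18a1 overlapped. The 14 proteoglycans and hyaluronan partners had medians of 0.17 at 6 weeks and 0.05 at 12 weeks. Cspg5, a brain proteoglycan, differed by 0.56 ± 0.16 and Hapln2, the link protein of nodes of Ranvier, by 0.73 ± 0.28 at 12 weeks (SE).

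The 14 other metalloproteinases tested had medians of 0.00 at 6 weeks and 0.08 at 12 weeks, near those of all genes. Mmp15, a membrane-bound enzyme, differed by 0.60 ± 0.21 at 12 weeks and Mmp19 by 0.77 ± 0.40 at 6 weeks (log2, SE), or 0.30 without KO replicate 2. The WT mean of Mmp19 at 6 weeks, 3.89, was barely above the dim level of that group, 3.87, so the size of its difference is uncertain. Among the 5 other protease inhibitors, Timp4 and Timp1 differed in opposite directions. Timp4 had all 3 KO arrays between 7.64 and 7.66 and the WT arrays between 6.39 and 7.19 at 6 weeks, a difference of 0.78 ± 0.25 (SE; adjusted p = 0.653 in limma). Timp1, the inhibitor most known to be induced by inflammation, was at −0.92 ± 0.36 at 12 weeks (SE; adjusted p = 0.350 in limma), with KO from 3.98 to 5.77 and WT from 4.97 to 6.26. At 12 weeks the KO means of Timp2 and Timp3 were above and that of Timp1 below WT, and none of the 3 passed.

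Of the 10 matrix receptors 9 had a higher mean in KO at 12 weeks, with a median of 0.16. The integrin subunit gene Itgb5 ran from 7.95 to 8.46 in KO and from 7.11 to 7.75 in WT, with no overlap, and differed by 0.76 ± 0.19 (SE; adjusted p = 0.0765 in limma). Itgb3, another integrin subunit gene, differed by 0.74 ± 0.24 at 6 weeks (SE), or 0.45 without KO replicate 2. The 6 inducers of matrix genes all had a higher mean in KO at 12 weeks, with a median of 0.50, among them Tgfb1 (0.58 ± 0.29) and its receptor gene Tgfbr2 (0.61 ± 0.21). Of these, Itgb5, Tgfb1 and Tgfbr2 are also expressed by microglia, whose markers differed between the same groups as given above, and their part in these values was not tested.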

How the data were processed

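Per the labels' protocols, RNA was isolated on RNeasy columns, amplified by WT-Ovation Pico and biotin-labelled. The authors' deposited log2 values of 241576 probe sets on 18 arrays (0.732 to 13.674) were used as they are. Background correction, normalization and summarisation are not given in the sources used here. In the platform's annotation 212097 probe sets carried a single symbol, 4475 more than 1 and 25004 none; the first kind alone was used. Of the symbols 2668 were updated through a RefSeq table (GRCm38.p6), and 127 of 20416 were not found in it.

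The 20% of genes with the lowest mean (up to 3.41) were dropped and 16332 stayed. One limma model (version 3.58.1, R 4.3.3) with 4 group means was fitted to all 18 arrays, with 14 residual and 5.6 prior degrees of freedom. Tests were two-sided with Benjamini-Hochberg adjustment over all genes tested and a threshold of 0.05. The steps were tested on simulated data. The 9 genes and all lists were chosen with earlier results of these data known. Named genes were the 9, up to 2 of each matrix list with the smallest p in a genotype comparison, and the 3 genes most correlated with each of the 9. Alternatives changed the filter, the normalization, the gene value, the spread estimate, array weights, the arrays fitted and the blocks, or left out 1 array. Without both low-weight 6-week arrays, and with 3 further Postn probe sets, as well as each array left out for the other named matrix genes, were added after seeing the data. Tables used pandas 2.3.3 and numpy 2.4.6 in Python 3.11.15, and plots matplotlib 3.10.9.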

Additional observations from a re-analysis of the deposited data

Results flagged for a closer look

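Fn1 on WT replicate 3 of 6 weeks stood at 7.91, while the other WT arrays of that stage lay between 5.82 and 6.17, and its gap to the nearest array was 0.83 of the range of the group. It was 1 of 27 gene and group combinations tested for such a gap, and chance gives about 1 in 20. The same array was the highest of the 4 WT arrays for Postn (6.98), Vcan (7.26), Mmp2 (5.93), Mmp12 (7.16) and Timp2 (9.23), and its lesion phagocyte markers had the highest mean of all arrays (9.19).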

How the results depend on the processing

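In 32 alternatives, 2 of them chosen after seeing the data, 20 of the 45 differences of the 9 genes changed sign at least once, and the largest of these was 0.40 in size. Postn at 6 weeks and Timp2 and Timp3 at 12 weeks did not change sign in any alternative run. Postn was itself left out when the 40% dimmest genes were dropped. Timp2 KO vs WT at 12 weeks passed in 9 alternatives (adjusted p = 0.0488 with that filter, 0.0408 with the mean of the probe sets, 0.0171 with array weights, 0.00606 with only the groups compared, 0.0462 and 0.0429 without WT replicates 3 and 4 of 6 weeks, 0.0498 and 0.0186 without KO replicates 1 and 2 of 6 weeks, and 0.0114 without both low-weight arrays), and Mmp12 KO vs WT at 6 weeks passed in 1 (−2.49). The other 43 differences passed in none.

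Counts of all genes passing moved more. KO vs WT at 6 weeks gave 7 genes, 0 with only the groups compared, 4 with sex and listing run as covariates, and 0 to 11 with each array left out. KO vs WT at 12 weeks gave 72, 191 with array weights, 234 with only the groups compared, 218 without both low-weight 6-week arrays, and 14 to 129 with each array left out. 12 vs 6 weeks in WT gave 3, 5 with the mean of the probe sets, 1 with the brightest probe set, 1 with only the groups compared, 1 with listing run, 7 with sex and 0 with both as covariates, and 1 to 6 with each array left out. 12 vs 6 weeks in KO gave 1, 3 with the mean of the probe sets, 3 with the brightest, 0 with only the groups compared, 0 without both low-weight arrays, and 1 to 5 with each array left out. The interaction gave 0 throughout. The cause of these shifts was not tested.

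Replicate numbers were not used as pairs in the main fit. The deviations of 22 same-numbered pairs from their group means correlated between −0.36 and 0.24. Differently numbered pairs were not compared, so these values do not settle if replicate numbers pair the samples. A fit with replicate number as a block, in which KO replicate 6 of 12 weeks has no partner, gave 0 genes at 6 weeks, 20 at 12 weeks, 0 between stages in WT and 2 in KO, and Timp2 at 12 weeks was 0.92 (adjusted p = 0.131 in limma). With 3 to 6 arrays a group and no array background, small differences and those of genes near the dim level could not be resolved.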

Other observations

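Markers of the cells that lay down fibrous matrix were also read. The fibroblast markers Col1a1, Col1a2, Col3a1, Dcn and Lum also belong to the collagen and proteoglycan lists above, so their values enter both readings. The 10 genes of fibroblasts and leptomeninges had higher means in KO for 10 of 10 at 6 weeks (median 0.50) and 9 of 10 at 12 weeks (median 0.71), with 0 passing in limma at either stage, against medians of −0.00 and 0.02 for all genes. Their mean level at 12 weeks ran from 5.24 to 7.09 in KO and from 4.82 to 5.79 in WT, with KO replicate 6 highest, which was also the KO array with the highest Fn1 (7.95) and Timp3 (9.42). Endothelial markers had higher means in KO for 6 of 7 at 12 weeks (median 0.38) and for 4 of 7 at 6 weeks (median 0.11), and mural cell markers for 5 of 8 (median 0.16) and 7 of 8 (median 0.38), with 0 passing. Neuron markers had lower means in KO for 7 of 7 at 6 weeks (median −0.27), where KO replicate 2 had a mean of 7.24 against 8.64 and 8.85 on the other KO arrays.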
